A study of Mus musculus with 16 samples.

Results

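Taar7 and Taar8 are the expanded subfamilies of the mouse trace amine-associated receptors. They were taken as every probe set of the deposited table whose platform gene symbol starts with Taar7 or Taar8. The rule found 8 genes with 1 probe set each, of 19572 probe sets with a symbol, namely Taar7a, Taar7b, Taar7d, Taar7e and Taar7f and Taar8a, Taar8b and Taar8c. RNA of sorted cells was hybridised to 16 Clariom S arrays, in 4 groups with n = 4 arrays each: citrus GFP+, citrus GFP-, vehicle GFP+ and vehicle GFP-. All 24 animals, of both sexes and aged 7 to 12 weeks, carried the S100a5-tauGFP reporter, in which fluorescence follows S100a5, a gene for a calcium-binding protein whose expression follows the activity of olfactory sensory neurons (OSNs). Each mouse stayed alone in a chamber with 3.1 L of clean air per minute for 40 h. From 26 h onward it met a pulse of 10 s every 20 min, either of citrus accord, a perfumery blend, at 100%, or of filtered air as the vehicle. The olfactory mucosa of 3 mice made 1 pool, which was dissociated and sorted into GFP+ and GFP- cells, so an array describes a mixture of cells of several animals.

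Trace amine-associated receptors are G protein-coupled receptors that, apart from Taar1, serve smell, and many respond to volatile amines. An OSN as a rule expresses 1 olfactory receptor gene, so a receptor mRNA stands for the few neurons that chose it. Most neurons with these receptors lie in the dorsal zone of the olfactory epithelium. Taar7f is the member whose protein structure was solved, bound to an amine. In the assay that gives the study its title, receptor mRNAs that gain in reporter-positive cells under an odorant mark neurons that it activated. In bulk samples such as these, fewer cells of a type and less RNA per cell cannot be told apart.

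The gate was checked on S100a5 itself, which was higher in GFP+ cells by 1.88 ± 0.13 (SE) on the log2 scale in citrus and by 1.91 ± 0.13 in vehicle (limma, adjusted p = 8.64e-09 and 8.38e-09). Of the 14 mature OSN markers all were measured, with mean log2 levels of 16.32 to 16.43 in citrus GFP+, 15.74 to 16.12 in citrus GFP-, 16.14 to 16.32 in vehicle GFP+ and 15.72 to 15.99 in vehicle GFP- arrays. The GFP- gate also held other cells. All 12 measured myeloid and lymphoid markers were lower in GFP+ cells in both stimuli, with mean log2 levels of 5.24 to 5.67 in citrus GFP+ against 11.20 to 13.01 in citrus GFP- arrays, and 5.24 to 5.84 in vehicle GFP+ against 11.86 to 12.81 in vehicle GFP- arrays. All 8 microvillous cell markers were lower as well. Of 10 immature OSN markers, 4 were lower in citrus and 5 in vehicle. The part of these other cells in the receptor differences was not tested. Replicate 3 of the GFP+ cells stood apart from the other GFP+ arrays for several of the receptors in citrus and in vehicle, and values without both of these pools follow the values of all pools.

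The 8 genes lie in 1 row on chromosome 10, in which the annotation (RefSeq, GRCm38.p6) lists 16 Taar genes, 15 of them protein coding, with 2 other annotated genes among them. Taar7a stands after Taar6 and before Taar7b, the pseudogene Taar7c-ps follows, then Taar7d, Taar7e, Taar7f, Taar8a, Taar8b, Taar8c and last Taar9. The 5 Taar7 gene models each span 1077 bases, a coding length, and Taar8a and Taar8b span 1035. RefSeq start windows of 250 bases before and 50 bases after the annotated gene start were available for 6 of the 8 members, all but Taar8a and Taar8c. In the 5 Taar7 windows the annotated start is the ATG of the coding sequence, so the window holds the bases just before the coding sequence and need not hold the site where transcription starts. The windows of the Taar7 genes are shown because the 2 that look most alike there, Taar7d and Taar7e, went in opposite directions between the gates. They cover chr10:24026972-24027271 (plus strand) for Taar7d, chr10:24037364-24037663 (plus) for Taar7e, chr10:23999689-23999988 (plus) for Taar7b, chr10:24049260-24049559 (plus) for Taar7f and chr10:23993432-23993731 (minus) for Taar7a. Capitals mark the bases that do not match Taar7e in a global alignment of the windows, and for Taar7e those that do not match Taar7d.
Taar7d: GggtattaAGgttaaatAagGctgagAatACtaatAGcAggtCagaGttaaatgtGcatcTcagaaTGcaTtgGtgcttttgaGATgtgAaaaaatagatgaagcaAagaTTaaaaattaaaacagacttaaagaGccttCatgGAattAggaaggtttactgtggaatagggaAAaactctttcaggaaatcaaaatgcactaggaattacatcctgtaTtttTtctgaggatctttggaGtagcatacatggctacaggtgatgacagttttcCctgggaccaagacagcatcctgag
Taar7e: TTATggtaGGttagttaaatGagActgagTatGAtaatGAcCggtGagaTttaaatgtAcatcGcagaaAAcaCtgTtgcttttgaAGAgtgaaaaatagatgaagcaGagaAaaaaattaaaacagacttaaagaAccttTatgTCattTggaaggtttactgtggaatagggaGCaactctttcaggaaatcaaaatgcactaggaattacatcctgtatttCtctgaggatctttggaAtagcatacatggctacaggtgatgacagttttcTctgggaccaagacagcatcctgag
Taar7b: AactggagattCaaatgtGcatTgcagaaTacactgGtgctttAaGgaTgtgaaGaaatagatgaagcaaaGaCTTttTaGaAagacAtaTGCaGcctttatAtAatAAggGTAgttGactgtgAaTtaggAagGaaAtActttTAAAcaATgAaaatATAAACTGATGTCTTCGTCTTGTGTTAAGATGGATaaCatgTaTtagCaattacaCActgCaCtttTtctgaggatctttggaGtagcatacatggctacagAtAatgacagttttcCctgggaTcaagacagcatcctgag
Taar7f: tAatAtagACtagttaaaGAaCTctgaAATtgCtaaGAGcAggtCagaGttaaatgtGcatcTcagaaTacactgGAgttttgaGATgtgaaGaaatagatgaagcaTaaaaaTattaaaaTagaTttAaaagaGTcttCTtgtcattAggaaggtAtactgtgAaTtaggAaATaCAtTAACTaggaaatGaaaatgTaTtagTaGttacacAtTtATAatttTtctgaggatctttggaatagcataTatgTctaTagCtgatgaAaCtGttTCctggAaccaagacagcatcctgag
Taar7a: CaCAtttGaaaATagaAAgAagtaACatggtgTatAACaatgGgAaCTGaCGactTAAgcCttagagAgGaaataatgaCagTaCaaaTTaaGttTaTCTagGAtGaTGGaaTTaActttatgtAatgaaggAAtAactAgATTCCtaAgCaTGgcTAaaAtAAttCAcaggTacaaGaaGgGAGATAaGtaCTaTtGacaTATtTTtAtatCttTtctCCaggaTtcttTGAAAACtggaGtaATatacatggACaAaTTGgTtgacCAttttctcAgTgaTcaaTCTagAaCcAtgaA

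The windows of Taar7d and Taar7e were 86.2% identical over the aligned columns, with 83.9% before the start and 98.0% after it. Taar7f was 79.4% identical to Taar7d and 75.1% to Taar7e. Taar7b was 60.5% identical to Taar7e and 62.5% to Taar7d over the whole window, but 92.0% and 94.0% in the 50 coding bases. Taar7a, the only one of the 5 on the minus strand, was 53.5% to 56.0% identical to the other Taar7 windows. Taar8b was 48.3% to 53.1% identical to them. None of the 6 windows held the core of the olfactory O/E site, CCCNNGGG on either strand, which 13.4% of 27025 windows of the genome and 3.0% of 955 receptor windows hold. The homeodomain core TAATTA, which reads the same on both strands, stood once in the Taar8b window and in no Taar7 window, against 5.3% of all and 18.5% of receptor windows. Probe sequences of the array were not analysed here, so how much a probe set of 1 Taar7 gene also reads its near copies was not tested.

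The first comparison asks which of these receptors differ between reporter-positive and reporter-negative cells. The Taar7 subfamily split. Taar7b and Taar7e were higher in GFP+ cells in both stimuli. Taar7f was lower in both, Taar7d was lower in citrus and Taar7a was lower in vehicle, while the Taar8 genes lay near the background signal and none passed the test. Thus 4 of 8 members passed in citrus, 2 higher and 2 lower, and 4 of 8 in vehicle, 2 higher and 2 lower. Over all probe sets 18.2% passed in citrus (7.44% higher and 10.8% lower) and 19% in vehicle (9.05% higher and 9.97% lower). Among 1105 odorant and trace amine receptor probe sets 62.1% passed in citrus and 59.4% in vehicle, so the members' share lies nearer to that of receptors at large than to that of all genes. Of these receptor probe sets 42.4% were higher and 19.6% lower in citrus, and 38.9% and 20.5% in vehicle. The median difference over the 8 members was 0.07 in citrus and 0.22 in vehicle, against 0.13 and 0.11 over all probe sets. Over the receptor probe sets it was 0.71 and 0.57, so the members' median lay under that of receptors at large. The Taar8 genes near background count in the members' median. Over the 5 Taar7 genes alone the median was −0.95 in citrus and −1.19 in vehicle. The arrays of the 2 gates did not overlap for 2 of 8 members in each stimulus, Taar7b and Taar7e in citrus and Taar7e and Taar7f in vehicle, against 22.7% and 20.8% of all probe sets.

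**Figure D1:**
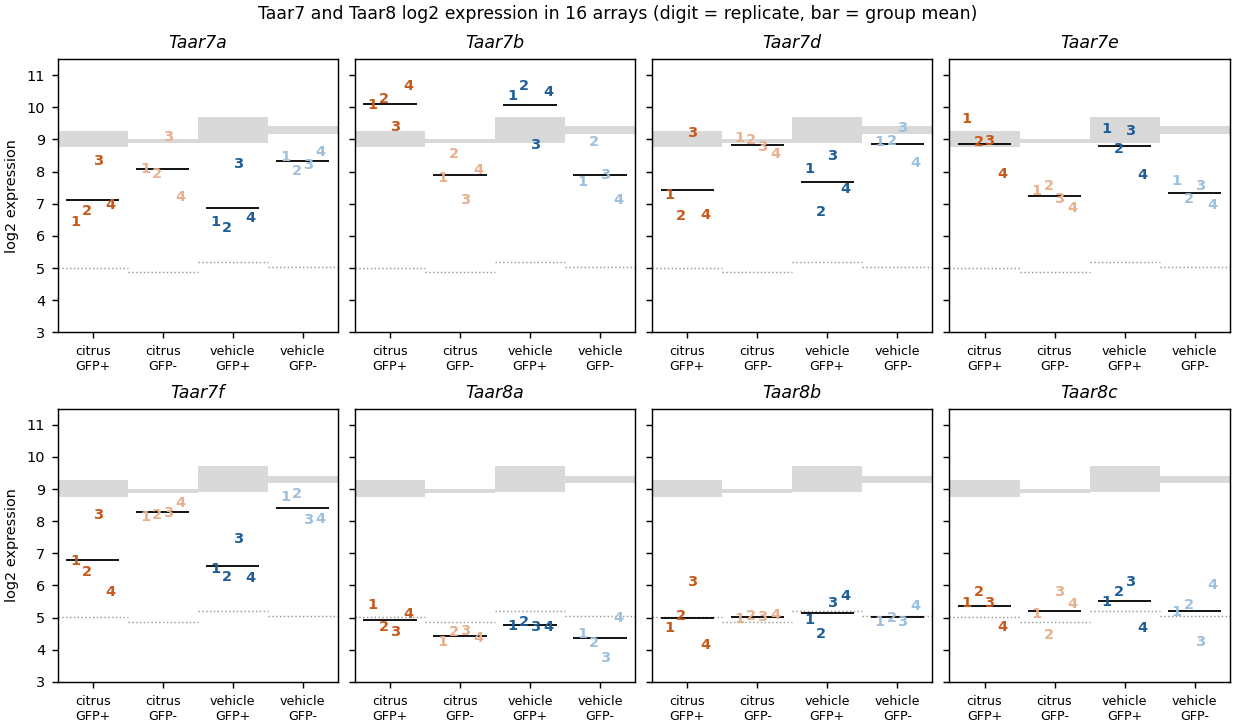
Log2 expression of the 8 receptors in the 4 groups of 4 arrays. Each digit is 1 array, named by its replicate number, and black bars are group means. The grey band spans the 95th percentiles of the negative-control probes on the arrays of a group and the dotted line is the mean of their medians. Taar7b and Taar7e stand higher in both GFP+ groups, Taar7f lower, and the 3 Taar8 genes lie around the dotted line.

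Levels were judged against negative-control probes, whose median lay between 4.84 and 5.37 and whose 95th percentile lay between 8.75 and 9.71 per array. The 5 Taar7 genes exceeded that median on all 16 arrays. The 95th percentile was passed by 0 to 3 of the 8 members on a given array, so most levels here cannot be told from the brighter negative controls by level alone.

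Taar7b was 1 of the 2 members that rose. It read 10.06, 10.27, 9.39 and 10.65 in citrus GFP+ arrays (replicates 1 to 4), against 7.81, 8.56, 7.12 and 8.06 in citrus GFP- arrays. In vehicle it read 10.35, 10.65, 8.83 and 10.49 in GFP+ arrays, against 7.69, 8.92, 7.90 and 7.13 in GFP- arrays. The groups did not overlap in citrus, and in vehicle they overlapped only through GFP+ replicate 3, which fell just under the highest GFP- array. The difference was 2.20 ± 0.42 (SE) in citrus and 2.17 ± 0.42 in vehicle (limma, adjusted p = 0.000882 and 0.00121), and it was positive in 8 of 8 pools. All GFP- arrays lay under the 95th percentile of the negative controls. Set against that level on the array's scale, Taar7b was at least 2.21-fold higher in GFP+ cells in citrus, where 4 of 4 GFP+ arrays exceeded it, and at least 1.74-fold in vehicle, where 3 of 4 did.

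Taar7e, the neighbour of Taar7d in the row, was the other member that rose. It read 9.63, 8.92, 8.96 and 7.93 in citrus GFP+ arrays, against 7.40, 7.54, 7.14 and 6.88 in citrus GFP- arrays. In vehicle it read 9.32, 8.69, 9.26 and 7.90 in GFP+ arrays, against 7.70, 7.14, 7.54 and 6.95 in GFP- arrays. The GFP+ and GFP- arrays did not overlap in either stimulus, and replicate 4 was the lowest array in all 4 groups. The difference was 1.62 ± 0.33 in citrus and 1.45 ± 0.33 in vehicle (limma, adjusted p = 0.0017 and 0.00462). By pool it lay between 0.94 and 2.23, positive in 8 of 8. Only 2 of 4 citrus and 1 of 4 vehicle GFP+ arrays exceeded the 95th percentile of the negative controls. The GFP+ mean less the mean of that percentile on the GFP- arrays was −0.09 in citrus and −0.49 in vehicle. Since both values are negative, no fold is given for Taar7e.

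Taar7f, the member with a solved structure, fell. It read 6.75, 6.43, 8.19 and 5.81 in citrus GFP+ arrays, against 8.13, 8.20, 8.24 and 8.57 in citrus GFP- arrays. In vehicle it read 6.51, 6.27, 7.46 and 6.22 in GFP+ arrays, against 8.74, 8.85, 8.05 and 8.06 in GFP- arrays. The groups overlapped in citrus, where GFP+ replicate 3 reached the level of GFP- cells, and did not overlap in vehicle. The difference was −1.49 ± 0.39 in citrus and −1.81 ± 0.39 in vehicle (limma, adjusted p = 0.0106 and 0.00275), negative in 8 of 8 pools. The citrus call was lost without citrus replicate 2 (−1.40, limma adjusted p = 0.0609) and without citrus replicate 4 (−1.07, 0.112). No array exceeded the 95th percentile of the negative controls for Taar7f.

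Taar7d read 7.28, 6.62, 9.19 and 6.64 in citrus GFP+ arrays, against 9.05, 8.98, 8.76 and 8.54 in citrus GFP- arrays. In vehicle it read 8.09, 6.73, 8.48 and 7.45 in GFP+ arrays, against 8.91, 8.95, 9.35 and 8.28 in GFP- arrays. In citrus 3 of the 4 GFP+ arrays lay well under all GFP- arrays and replicate 3 lay above them, and in vehicle the groups overlapped. The difference was −1.40 ± 0.46 in citrus (limma, adjusted p = 0.0431) and −1.19 ± 0.46 in vehicle (0.0853), negative in 7 of 8 pools. Without citrus replicate 1, 2 or 4 the citrus value did not pass (−1.28, −1.08 and −1.24, limma adjusted p = 0.147, 0.214 and 0.164). It also missed the threshold after centring each array at the median probe set (−1.08, 0.0514), with a trended and robust prior (0.0607) and with only the citrus arrays in the fit (0.0732).

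Taar7a read 6.44, 6.78, 8.32 and 6.96 in citrus GFP+ arrays, against 8.07, 7.94, 9.08 and 7.22 in citrus GFP- arrays. In vehicle it read 6.44, 6.24, 8.23 and 6.55 in GFP+ arrays, against 8.44, 8.02, 8.20 and 8.60 in GFP- arrays. In vehicle 3 of 4 GFP+ arrays lay well under all GFP- arrays, and GFP+ replicate 3 lay among them. The difference was −0.95 ± 0.45 in citrus (limma, adjusted p = 0.16) and −1.45 ± 0.45 in vehicle (0.0312), negative in 7 of 8 pools. The vehicle call was lost without vehicle replicate 1, 2 or 4 (−1.27, −1.34 and −1.25, limma adjusted p = 0.128, 0.122 and 0.166) and with array weights (0.0527).

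The Taar8 genes gave no call between the gates. Taar8a averaged 4.94 ± 0.39 in citrus GFP+, 4.44 ± 0.17 in citrus GFP-, 4.76 ± 0.08 in vehicle GFP+ and 4.36 ± 0.53 in vehicle GFP- arrays (SD, n = 4 each), and exceeded the median of the negative controls on 1 array. Taar8b ranged over 4.16 to 6.11 in citrus GFP+, 4.96 to 5.07 in citrus GFP-, 4.49 to 5.68 in vehicle GFP+ and 4.85 to 5.37 in vehicle GFP- arrays. Taar8c ranged over 4.71 to 5.80 in citrus GFP+, 4.45 to 5.79 in citrus GFP-, 4.69 to 6.10 in vehicle GFP+ and 4.24 to 6.03 in vehicle GFP- arrays. These levels lie at, under or around the middle of the negative controls, so a signal of these genes was not detectable here, which does not show that they were absent. Their differences lay between −0.02 ± 0.32 (Taar8b in citrus) and 0.50 ± 0.23 (Taar8a in citrus, limma adjusted p = 0.151). After centring each array at the median probe set Taar8a passed, at 0.82 in citrus (0.00922) and 0.68 in vehicle (0.0266).

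**Figure D2:**
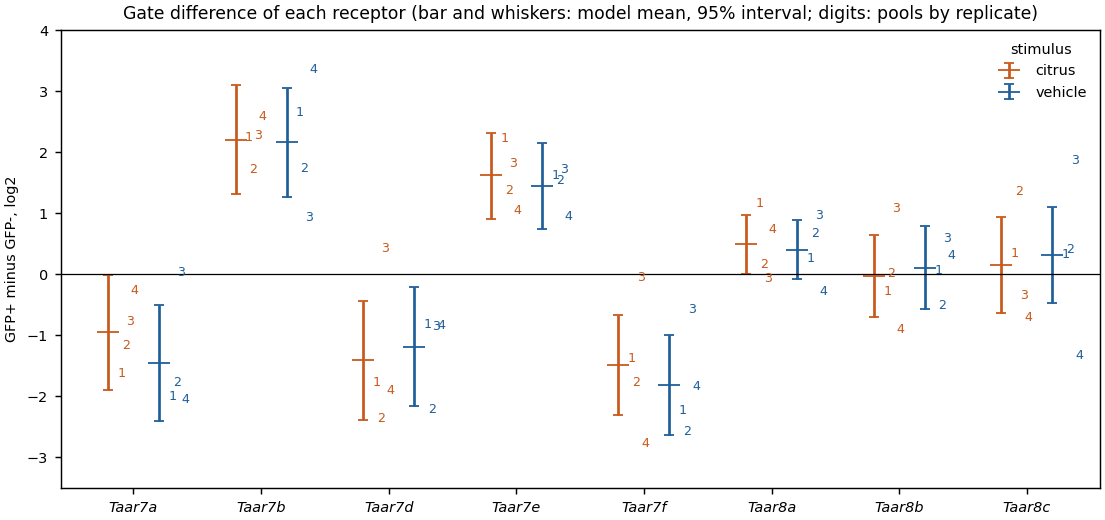
Difference between GFP+ and GFP- cells of each receptor on the log2 scale, by stimulus. The short bars with whiskers are the estimates of the model over all arrays with their 95% intervals, and each digit is the difference within 1 pool of mice, named by its replicate number. All 8 pools of Taar7b and Taar7e lie above 0 and all 8 of Taar7f lie below it, and for Taar7f the smallest difference in each stimulus is that of replicate 3.

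Whether the members differ from each other was tested on the gate difference within each pool, which removes the offset of a probe set. All 28 pairs were compared over the 8 pools by an exact two-sided sign-flip permutation test, whose smallest p is 0.0078, adjusted over the 28 pairs. The pairs that hold a Taar8 gene are not read, since a probe set near background gives a difference near 0 whatever its mRNA does. Within Taar7, 6 of 10 pairs differed, namely every pair of 1 gene that was higher in GFP+ cells (Taar7b or Taar7e) with 1 that was lower (Taar7a, Taar7d or Taar7f). Higher and lower were read from these same gate differences, so the 6 calls restate the gate comparison and are no separate support for it. The gate difference of Taar7d lay under that of Taar7e by a mean of −2.83 (SD 0.96, 0 of 8 pools positive, exact permutation adjusted p = 0.0182), although their start windows are the most alike. Taar7b exceeded Taar7f by 3.84 (SD 1.38, 8 of 8 pools, adjusted p = 0.0182, exact permutation). Taar7b and Taar7e differed by 0.65 (SD 0.99, 7 of 8 pools, exact permutation adjusted p = 0.139), and Taar7d and Taar7f by 0.36 (SD 0.73, 5 of 8 pools, 0.257). Leaving out 1 pool at a time gave 6 or 7 called Taar7 pairs, with 7 pools allowing an exact p of 0.016 at the least. The test takes the 8 pools as independent, although after removal of group means the citrus and vehicle GFP+ arrays of one number correlated across receptor probe sets at 0.318 to 0.693. With the citrus and vehicle pools of one number averaged, an alternative added after seeing the data, 4 units are left, the smallest exact two-sided permutation p is 0.125 and no pair could pass. In that form the 6 pairs kept 1 direction in 4 of 4 numbers each, and Taar7d with Taar7e lay between −3.76 and −1.98.

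**Figure D3:**
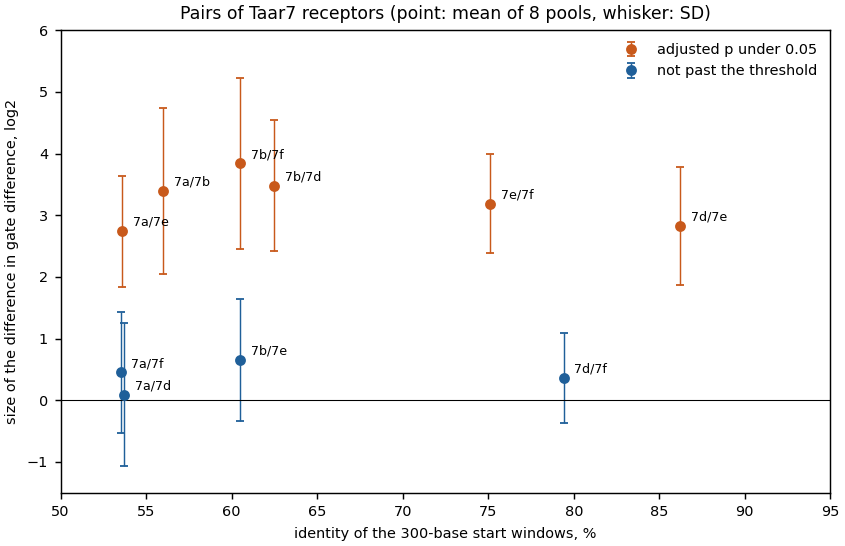
Identity of the 300-base start windows of 2 Taar7 genes, in percent, against the size of the difference between their gate differences, in log2 units. Points are means over 8 pools and whiskers are SDs, and colour shows whether the pair passed the exact permutation test. The pair Taar7d and Taar7e lies at 86.2% identity with a difference of 2.83 in size, while Taar7a and Taar7d lie at 53.7% with 0.09.

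After removal of group means, the citrus and vehicle GFP+ arrays of one number correlated across all receptor probe sets. The values were 0.646, 0.394, 0.693 and 0.318 for numbers 1 to 4, so shared deviations are not particular to this subfamily. Replicate 3 of the GFP+ cells stood apart for several Taar7 genes, in citrus and in vehicle. It was the highest of the 4 GFP+ arrays for Taar7a, Taar7d and Taar7f in both stimuli and the lowest for Taar7b in both, while Taar7e lay inside the range of the other arrays. Of the Taar8 genes it was the lowest for Taar8a in both and at no shared end for the other two. The gate differences of these pools were accordingly small for Taar7f, at −0.05 in citrus and −0.58 in vehicle, and for Taar7a in vehicle, at 0.03. For Taar7d in citrus the sign was turned, at 0.43. Of the 7 other trace amine receptors, 1 had this array at the same end in both stimuli. This was Taar2, with 7.92 in citrus and 8.09 in vehicle GFP+ replicate 3, against 4.13 to 6.29 and 4.37 to 4.98 on the other GFP+ arrays. The dorsal zone markers were highest in the same arrays. Nqo1, a quinone oxidoreductase of dorsal OSNs, read 17.22 in citrus and 17.32 in vehicle GFP+ replicate 3, against 16.27 to 16.55 and 16.25 to 17.01 on the others. Acsm4, a medium-chain acyl-CoA synthetase of dorsal OSNs, read 14.19 and 14.18, against 13.01 to 13.52 and 13.08 to 13.65. S100a5 did not stand apart there, with 17.44 in citrus and 16.76 in vehicle GFP+ replicate 3, inside the range of the other arrays. The ventral zone markers Ncam2 and Nfia were lowest in citrus GFP+ replicate 3, at 14.15 and 10.37. In vehicle GFP+ replicate 3 they lay inside the range, at 14.09 and 10.05. Replicate 3 was also highest for Nqo1 in GFP- cells, at 16.69 in citrus and 16.49 in vehicle. For Acsm4 in GFP- cells this held in vehicle (13.41) but not in citrus (13.54). The part of the dorsal share of cells in these receptor values was not tested. With both pools numbered 3 left out, a choice made after these values were seen, 5 of 8 members passed in each stimulus, 2 higher and 3 lower, against 13.1% and 14.1% of all probe sets. The pools were picked by the members' own values, so this fit is a description and its calls add no support. In that fit Taar7a was at −1.02 in citrus and −1.94 in vehicle (limma, adjusted p = 0.0128 and 8.77e-05), Taar7d at −2.01 and −1.29 (0.000564 and 0.0156), and Taar7f at −1.97 and −2.22 (0.000136 and 5.32e-05). Taar7b was at 2.18 and 2.58 (0.000748 and 0.000198) and Taar7e at 1.55 and 1.37 (0.0231 and 0.0429), the 4 calls of these genes being kept.

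The members were set beside other genes of their pathway. Of the 7 other trace amine receptors, 3 were higher and 1 lower in citrus and 4 higher and 1 lower in vehicle, with medians of 0.47 and 0.88. Taar9, next to Taar8c, was at 3.54 ± 0.54 in citrus and 2.73 ± 0.54 in vehicle (limma, adjusted p = 8.85e-05 and 0.00132). Taar4, a receptor for phenylethylamine, was at 3.08 ± 0.51 and 3.02 ± 0.51, and Taar3 at 2.50 ± 0.35 and 1.75 ± 0.35. Taar5, a trimethylamine receptor with a level under the median of the negative controls in all 4 groups, passed in vehicle at 0.88 ± 0.30 (0.0488), and Taar2 was lower at −2.72 ± 0.73 and −3.00 ± 0.73 (0.0128 and 0.00687). The row thus holds genes of both directions beyond the Taar7 subfamily. Of 17 measured olfactory transduction genes, which carry the signal from receptor to spike, 6 were higher and 1 lower in citrus, and 4 higher and 1 lower in vehicle. Pde1c, a cAMP phosphodiesterase, rose by 0.95 ± 0.16 in both stimuli. Ano2, the chloride channel, rose by 0.72 ± 0.13 in citrus and 0.64 ± 0.13 in vehicle. The receptor transporter Rtp2 rose by 0.55 ± 0.17 in citrus and 0.75 ± 0.17 in vehicle. Gng13, the G protein gamma subunit, passed in citrus at 0.61 ± 0.16 and was at 0.43 ± 0.16 in vehicle (limma, adjusted p = 0.0785). Grk3, a receptor kinase with a level under the median of the negative controls in GFP+ cells, was at −0.88 ± 0.23 in citrus and −1.20 ± 0.23 in vehicle. Omp, the olfactory marker protein, was at 0.18 ± 0.14 and 0.27 ± 0.14 and did not pass (0.398 and 0.192). Of the zone markers, Nqo1 and Acsm4 gave no call, at 0.09 ± 0.25 and 0.12 ± 0.25 in citrus and 0.55 ± 0.25 and 0.39 ± 0.25 in vehicle. Ncam2, an adhesion protein of ventral OSNs, passed in citrus alone (0.55 ± 0.17 in citrus and 0.11 ± 0.17 in vehicle), and Nfia, a transcription factor of ventral OSNs, in vehicle alone (−0.13 ± 0.24 in citrus and −0.87 ± 0.24 in vehicle).

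The second comparison asks whether citrus accord changed the receptors. None of the 8 members passed for citrus against vehicle in GFP+ cells, in GFP- cells, or for the effect of citrus on enrichment, the difference of the gate differences. By limma 0.0204% of all probe sets passed in GFP+ cells, 0.0153% in GFP- cells and 0% for the effect on enrichment. In the same order, 794, 1151 and 722 of 19572 probe sets had an unadjusted limma p under 0.05. Of the members 0 did in any of the 3. Those shares are small, so 0 of 8 members does not set them apart from genes at large. A block, the replicate number for citrus against vehicle and the pool for the effect on enrichment, left the members' calls at 0. The effects on enrichment lay between −0.22 ± 0.65 (Taar7d) and 0.49 ± 0.64 (Taar7a), all with a limma adjusted p of 0.999, so the calls of Taar7d in citrus alone and of Taar7a in vehicle alone are not shown to differ between the stimuli. The precision was limited: the 95% interval of the effect on enrichment ran from −1.22 to 1.30 for Taar7b, from −0.83 to 1.16 for Taar7e and from −0.84 to 1.48 for Taar7f. Changes of about the size of the gate differences in citrus, 2.20 for Taar7b and 1.62 for Taar7e, lie outside these intervals, while changes that lie within them cannot be told from 0 with these arrays. In GFP+ cells alone, Taar7b differed by 0.01 (95% interval −0.88 to 0.91) and Taar7e by 0.07 (−0.64 to 0.77). For the Taar8 genes, near background in all groups, the intervals bound the signal and not the mRNA. The effect on enrichment shares its arrays with both gate comparisons.

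**Figure D4:**
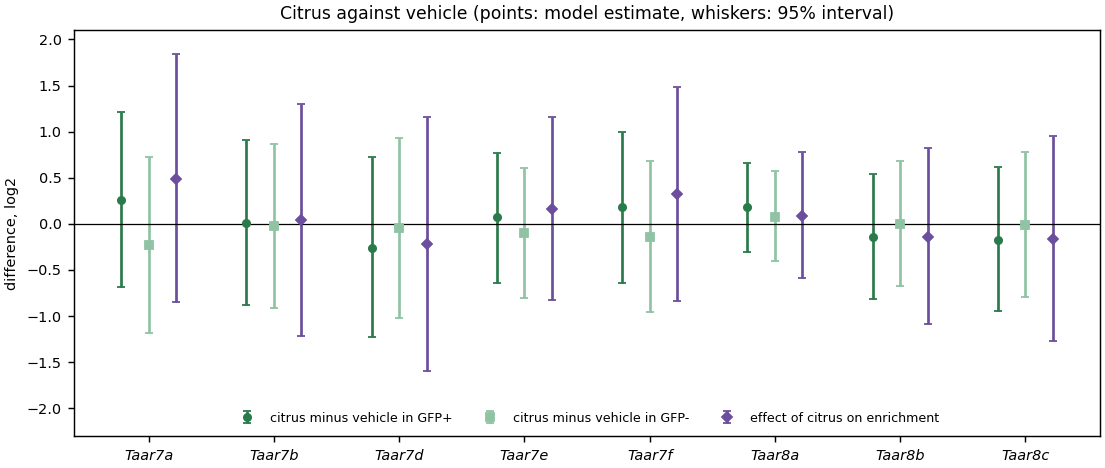
Citrus minus vehicle in GFP+ cells, in GFP- cells, and the effect of citrus on enrichment, for each receptor on the log2 scale. Points are model estimates and whiskers 95% intervals. All 24 intervals include 0.

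As a description, the gene whose profile over the 16 arrays was most like that of a member was an odorant receptor for all 5 Taar7 genes: Olfr875 for Taar7a (Pearson r = 0.90), Olfr550 for Taar7b (0.95), Olfr1451 for Taar7d (0.95), Olfr376 for Taar7e (0.94) and Olfr938 for Taar7f (0.95). For Taar8a, Taar8b and Taar8c the most alike were Prdm13 (0.82), Ssh1 (0.79) and Ccm2l (0.86). The second were Olfr816 for Taar7a (0.89), Olfr1269 for Taar7b (0.94), Olfr969 for Taar7d (0.94), Spns1 for Taar7e (0.94), Olfr441 for Taar7f (0.95), Arpc5l for Taar8a (0.81), Krt32 for Taar8b (0.79) and Exo5 for Taar8c (0.77). The arrays share the 2 gates, so these values mostly follow the gate difference. After group means were removed the most alike were Hamp for Taar7a (0.94), Adamtsl2 for Taar7b (0.87), Olfr1451 again for Taar7d (0.92), Abcb6 for Taar7e (0.85) and Olfr1140 for Taar7f (0.90).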

How the data were processed

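Expression was measured in 16 samples, each RNA of sorted cells of 3 mice, labelled as biotinylated cRNA from 50 to 100 ng of total RNA, per the labels' protocols. The authors deposited 1 table of log2 values for 28846 probe sets, and the submitters' processing notes name Affymetrix Expression Console, with its version and a genome build not given in the sources used here. The label of 1 sample names gene-level SST-RMA. That method can widen the scale, and if it made all columns, differences of log2 values may exceed those of the mRNA. Values were used as deposited, and arrays give no read depth, so the number of arrays limits the precision. Groups came from the labels.

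Symbols came from the platform annotation: 19572 probe sets with 1 symbol entered the tests, and 2634 without one and 6640 controls, of which 5222 negative, did not. Differences were fitted with limma 3.58.1 in R 4.3.3 over all 19572 probe sets, 1 mean per group and 1 spread over 16 arrays, with Benjamini-Hochberg adjustment over all of them and a threshold of 0.05. Errors beside log2 differences are standard errors of that fit. Pairs of members were compared by exact sign flips over 8 pools. On simulated data the fit of GFP+ against GFP- in citrus recovered 6% of 50 changes of 0.5 log2 units. Of 50 changes each it recovered 66% of 1 log2 unit, 94% of 2 and 100% of 3. The simulation gave 138 calls against 3569 in the data, so the adjustment differed and these shares need not hold for the members.

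All 8 members, S100a5, Omp and the zone markers were named by rule, other trace amine receptors if past the threshold, and up to 3 transduction genes with the largest change in each direction. Members and lists were chosen with earlier results of these data known. The other marker lists gave, lower in citrus and in vehicle, 6 and 5 of 6 globose basal and cycling genes. In the same order, 2 and 1 of 8 sustentacular genes and 1 and 1 of 2 vomeronasal genes were lower. Of the 14 mature OSN genes, 4 were higher in citrus and 4 in vehicle, with Ano2 and Rtp2 higher in both. Arrays of both gates with one number were taken as 1 pool, since 24 mice make 8 pools of 3. Their deviations from group means correlated at 0.075 to 0.275 across probe sets. Citrus and vehicle arrays of one number, from different mice, gave 0.07 to 0.331 in GFP+ and −0.013 to 0.354 in GFP- cells. These correlations therefore do not show which arrays share a pool. Start windows were aligned with Biopython 1.88, and figures drawn with matplotlib 3.10.9.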

Additional observations from a re-analysis of the deposited data

Results flagged for a closer look

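Of 76 sets of 4 arrays (19 genes in 4 groups), 3 held 1 array whose gap to its nearest neighbour took up most of the range, a test that flags about 1 in 20 sets by chance. All 3 concern vehicle GFP+ replicate 3. Taar7a was high there at 8.23, where the other vehicle GFP+ arrays read 6.24 to 6.55. Taar7b was low at 8.83, against 10.35 to 10.65. Taar2 was high at 8.09, against 4.37 to 4.98. In citrus GFP+ replicate 3 the same genes lay at 8.32, 9.39 and 7.92, without passing this test.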

How the results depend on the processing

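Between the gates, 4 members passed in citrus and 4 in vehicle, and 3 to 5 did under each alternative that kept all pools. Leaving out 1 pool gave 2 to 4 in citrus and 3 to 4 in vehicle, with only Taar7b and Taar7e left in citrus without replicate 2 or replicate 4, and the 20 pairs called among all 28, 14 of them with a Taar8 gene, became 12 to 20. With pools of one number averaged the pairs called were 0, since 4 units cannot pass. With the replicate block, where the pool was the block, 4 members passed in citrus, 4 in vehicle and 0 for the effect on enrichment, and with the replicate number as block 0 for citrus against vehicle in either gate, so it changed no call. Between citrus and vehicle arrays share only a number, and 7 of 8 GFP+ and 5 of 8 GFP- arrays correlated best, over receptors, with their own number in the other stimulus. Taar7b, Taar7e and, in vehicle, Taar7f kept their direction and their call under every alternative run. Of 208 gate differences of single members under alternatives 187 kept their side of the threshold, 12 lost and 9 gained the call. The 400 values for citrus against vehicle and the effect on enrichment had no call under any alternative. Taar7a in citrus gained the call with arrays centred on mature OSN markers (−1.39, limma adjusted p = 0.0344) or on the receptor median (−1.70, 0.00424), and Taar7d in vehicle likewise (−1.57 and −1.64, limma adjusted p = 0.0149 and 0.00703) and with only the vehicle arrays (0.0405). Such centring moves the median difference of all probe sets, in citrus and vehicle by 0.33 and 0.28 on the median of all probe sets, −0.44 and −0.39 on OSN markers, and for the receptor median −0.75 and −0.45. It moved the share of calls that were higher to 84.2% and 82%, 9.92% and 10.3%, and 3.79% and 10.1%, against 40.8% and 47.6%. Of all probe sets 55.4% and 53.6% passed in citrus when centred on all probe sets and on receptors, against 18.2%, and in vehicle 44.1% when centred on all probe sets, against 19%. Under the alternatives that kept all pools, 17.2% to 55.4% of all probe sets passed in citrus and 15.6% to 44.1% in vehicle. With the pool as block these shares were 21% and 21.7%. With 1 pool left out, 12.7% to 16.1% passed in citrus and 12.1% to 17.6% in vehicle. The filter on dim probe sets left 0 of 8 members, so it gave no value, and the fit with only the groups compared equals the fit of all arrays for the effect on enrichment. The level of negative controls limits what the Taar8 genes can show.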
